A study of Homo sapiens with 18 samples.

Results

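The H/ACA small nucleolar RNAs and small Cajal body RNAs were read in human umbilical vein endothelial cells (HUVEC) across 18 Affymetrix whole-transcript arrays. Members were all probe sets whose platform annotation gives exactly 1 gene symbol, starting with SNORA or SCARNA and a digit, and 1 probe set was kept per symbol, by its mean over the 18 arrays (highest kept). This gave 77 members (61 SNORA and 16 SCARNA) of 18417 genes tested. The choice used no difference between groups. There were 6 groups of 3 arrays. In 4 groups HUVEC were exposed for 3 days to extracellular vesicles (EVs, membrane particles shed by cells) from a T cell line: MHC1+ EVs of JinB8, CD63+ EVs of JinB8, MHC1+ EVs of Jurkat and CD63+ EVs of Jurkat. Jurkat is a human T cell leukaemia line. JinB8 is a mutant Jurkat line that lacks the surface receptor CD47, so that a difference between donor lines is a difference between single lines. Capture was by antibody, either to CD63, a membrane protein abundant on vesicles of endosomal origin, or to MHC1, the surface complex that presents peptides to T cells. The fifth group received IgG beads with no EVs, also for 3 days, and the last group was untreated, with no time given. The HUVEC of all groups are described as a normal endothelial line. Per the labels, conditioned media were pooled within a donor line before the EVs were purified. The free text of 5 of the 6 JinB8 samples gives other numbers after the JinB stem, and the bracketed name of each gives JinB8, which was followed here.

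Box H/ACA RNAs fold into hairpins that hold short guide sequences. Together with dyskerin (DKC1), NHP2, NOP10 and GAR1 they direct the change of chosen uridines to pseudouridine, in ribosomal RNA for the SNORA class and in spliceosomal RNAs for many of the Cajal body class. In vertebrates most of them lie in introns of other genes and are cut out of the intron after splicing, so that guide RNA and host mRNA come from 1 transcript. Hosts are often genes of ribosomal proteins or of the translation machinery, many of which start transcription within a pyrimidine tract that begins with C. The SCARNA symbols are mixed in structure: SCARNA7, SCARNA9 and SCARNA17 are box C/D RNAs, which guide ribose methylation, and SCARNA5, SCARNA6, SCARNA10 and SCARNA12 join both kinds of domain.

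The start regions of genes that hold 3 of the members called below are shown because such guide RNAs are cut from transcripts that start there. The sequences are those of RefSeq on build GRCh38.p14, from 40 bases before the annotated start to 15 bases from it, on the gene's strand. Capitals mark an unbroken run of pyrimidines that starts with a C at the annotated start itself, where 4 or more pyrimidines follow it.
NOL11, around SNORA38B, chr17:67717896-67717950, plus strand: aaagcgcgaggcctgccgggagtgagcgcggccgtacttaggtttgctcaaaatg
RPSA, around SNORA62, chr3:39406680-39406734, plus strand: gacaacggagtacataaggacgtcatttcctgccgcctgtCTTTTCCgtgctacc
RPL12, around SNORA65, chr9:127451392-127451446, minus strand: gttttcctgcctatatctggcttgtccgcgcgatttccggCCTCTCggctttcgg
The ribosomal protein genes RPSA and RPL12 have such a run and NOL11, a gene of ribosomal RNA synthesis, has none at its annotated start. The run was looked for on the gene's own strand, at that position only. It stood in 14 of the 65 start regions of genes around members (21.5%) and in 4.07% of all 35116 start regions of the reference table.

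Untreated replicate 3 and bead replicate 3 stood apart from the other arrays. Their median Pearson's r with the other 16 arrays was 0.647 and 0.635, whereas no pair among those 16 fell below 0.932. The SD over all probe sets was 1.56 in untreated replicate 3 and 1.57 in bead replicate 3, against 2.01 to 2.25 in the other 16. Among these 16, Jurkat MHC1+ replicate 1 had the lowest SD and the lowest median r (0.948). Results are therefore given on 18 arrays and on 16 arrays (without the 2 discordant controls), and where it matters on 15 arrays (also without Jurkat MHC1+ replicate 1). The 12 endothelial markers averaged 9.11 to 9.34 in the 16 arrays and 6.13 to 7.02 in the 2 discordant ones. The 12 T cell markers averaged 4.07 to 4.11 in the JinB8 MHC1+ arrays, 4.08 to 4.63 in the other 13 concordant arrays and up to 5.30 in the discordant ones. No marker of endothelial cells, T cells or fibroblasts passed the test between JinB8 MHC1+ cells and beads, Jurkat MHC1+ or JinB8 CD63+ cells. Values are log2 signals after RMA normalization. No label says that replicates were separate cultures, and p-values then reflect only the spread among these samples, which may be technical. Serial numbers are adjacent within a group, so batch and group cannot be told apart. The number of arrays limits the precision.

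Many H/ACA RNAs were higher in cells given JinB8 MHC1+ EVs than in cells given beads. On 18 arrays 4 members rose and none fell at an adjusted p under 0.05 (limma, Benjamini-Hochberg over all genes), where 0.0434% of all genes rose. On 16 arrays 15 members rose and none fell, where 0.195% of all genes rose, and the 4 of the first count were among them. Leaving out 1 more of these arrays gave 1 member without bead replicate 2 (which leaves 1 bead array), 5 without bead replicate 1, 6 to 10 without a JinB8 MHC1+ array, and 33 without Jurkat MHC1+ replicate 1, where 0.505% of all genes rose. Leaving out 1 of the 18 arrays gave 1 to 9. Except for the fit without Jurkat MHC1+ replicate 1, the share of all genes that rose on leaving out an array is not given. The members' median difference was 0.89 on 18 arrays and 0.90 on 16 arrays, and that of all genes -0.09 and -0.02. In bulk RNA, more cells with a guide RNA and more guide RNA per cell cannot be told apart.

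SNORA38B, an H/ACA RNA from an intron of NOL11, showed the clearest difference. Its log2 level was 8.62, 8.71 and 8.53 in the JinB8 MHC1+ arrays, against 6.52, 6.32 and 5.93 in the bead arrays. It stood at 5.99, 6.31 and 6.50 with JinB8 CD63+ EVs, at 6.69, 6.59 and 6.29 with Jurkat MHC1+ EVs, at 6.48, 6.36 and 6.01 with Jurkat CD63+ EVs, and at 6.64, 6.83 and 6.87 in untreated cells. The JinB8 MHC1+ arrays lay far above every other array, and the other 5 groups had overlapping or adjoining ranges. The rise over beads was 2.36 ± 0.20 (SE, 3 arrays against 3; limma adjusted p = 0.000172) on 18 arrays and 2.20 ± 0.18 (adjusted p = 6.57e-05) on 16.

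SNORA65, encoded within the ribosomal protein gene RPL12, is a guide for large-subunit ribosomal RNA. Its level was 8.69, 8.90 and 8.69 with JinB8 MHC1+ EVs, against 6.95, 6.40 and 5.60 with beads. No other array of the 18 reached the JinB8 MHC1+ range, the next highest being 7.35 with JinB8 CD63+ EVs. It rose by 2.44 ± 0.35 over beads (limma adjusted p = 0.0169, 3 arrays against 3) and by 2.08 ± 0.30 on 16 arrays (adjusted p = 0.00609).

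SNORA62, from the gene of the ribosomal protein RPSA, likewise pairs with large-subunit ribosomal RNA. It had 9.38, 8.43 and 8.28 with JinB8 MHC1+ EVs and 6.44, 6.10 and 5.17 with beads. The groups did not overlap, though the JinB8 MHC1+ arrays were spread over more than a log2 unit, and the highest other array was a Jurkat CD63+ one at 7.89. The rise was 2.80 ± 0.44 (limma adjusted p = 0.0362, 3 arrays against 3), and 2.43 ± 0.40 on 16 arrays (adjusted p = 0.0192).

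SNORA68, a guide for large-subunit ribosomal RNA, had 8.68, 8.64 and 8.23 with JinB8 MHC1+ EVs and 7.18, 7.15 and 6.61 with beads. All 3 JinB8 MHC1+ values were again above those of every other array. The rise of 1.53 ± 0.22 (limma adjusted p = 0.0169, 3 arrays against 3) was 1.35 ± 0.19 on 16 arrays (adjusted p = 0.00609).

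**Figure D1:**
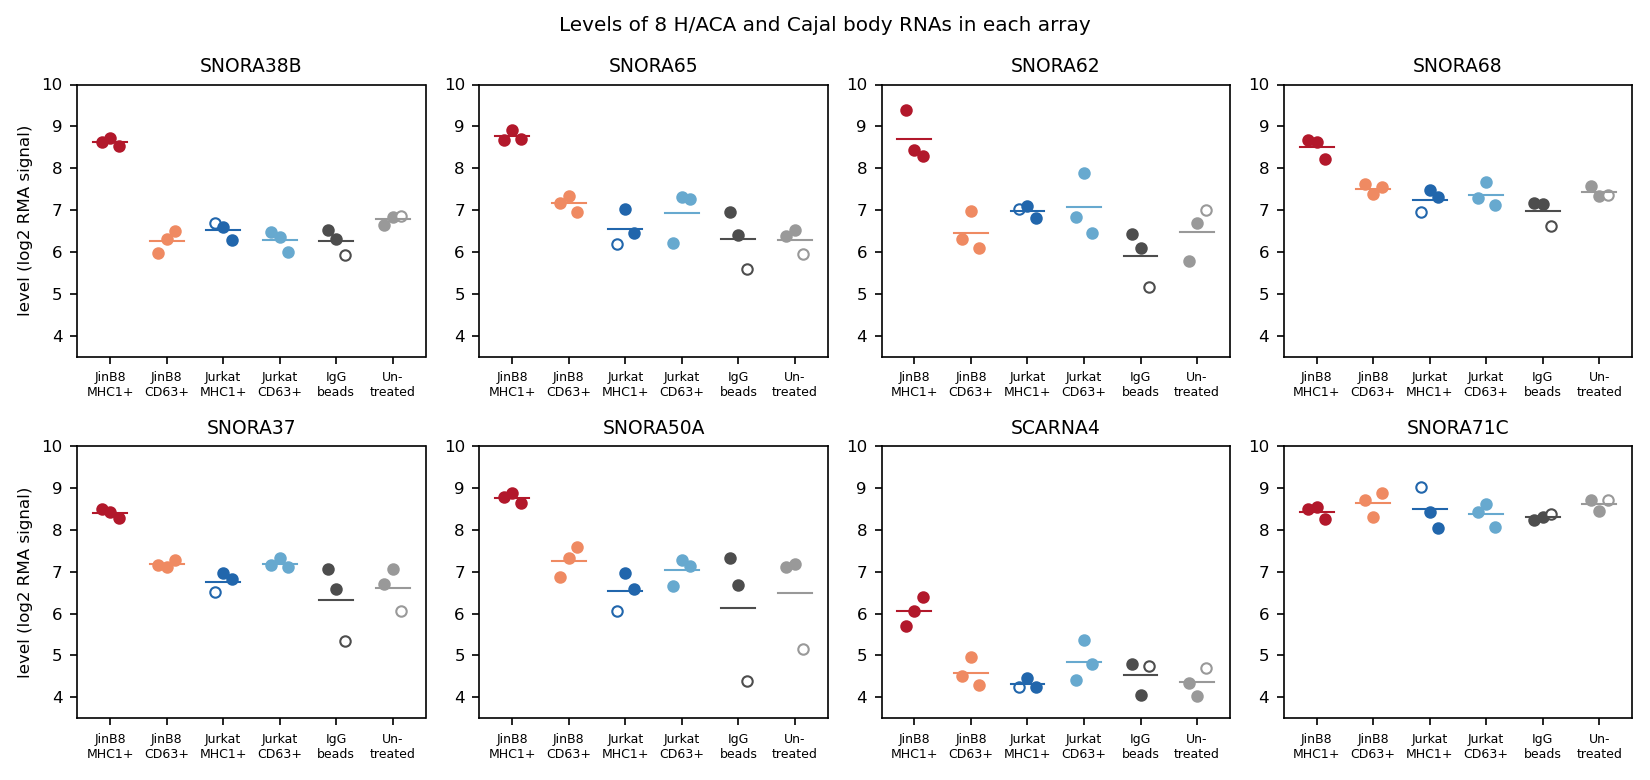
Log2 RMA level (vertical axis) of 8 members in each of the 18 arrays by group (horizontal axis), with a line at each group's mean. Open points are untreated replicate 3, bead replicate 3 and Jurkat MHC1+ replicate 1. In SNORA38B, SNORA65, SNORA62, SNORA68, SNORA37, SNORA50A and SCARNA4 the JinB8 MHC1+ arrays lie above all others, while in SNORA71C the groups overlap.

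Further members passed against beads on 16 arrays but not on 18. SNORA37, in the gene of the methyl-CpG-binding protein MBD2, had 8.50, 8.42 and 8.28 with JinB8 MHC1+ EVs, against 7.06, 6.58 and 5.35 with beads. The third bead value is the discordant array. The difference was 2.07 ± 0.34 on 18 arrays (limma adjusted p = 0.0555) and 1.58 ± 0.17 on 16 (adjusted p = 0.00152).

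SNORA50A, a guide for small-subunit ribosomal RNA in an intron of CNOT1, had 8.78, 8.88 and 8.64 with JinB8 MHC1+ EVs and 7.33, 6.67 and 4.39 with beads. Here too the lowest bead value is the discordant array. The difference was 2.64 ± 0.63 on 18 arrays (limma adjusted p = 0.462), and SNORA50A rose by 1.76 ± 0.27 on 16 (adjusted p = 0.0105). SNORA3A, in the ribosomal protein gene RPL27A, rose on 16 arrays by 1.98 ± 0.29 (adjusted p = 0.00697). SNORA71A rose by 1.35 ± 0.18 (adjusted p = 0.00459), SNORA27 by 1.23 ± 0.18 (adjusted p = 0.009) and SNORA14A by 1.58 ± 0.24 (adjusted p = 0.0105). The others that rose on 16 arrays were SCARNA4, SNORA13, SNORA23, SNORA46 and SNORA52. The lowest differences on 16 arrays were -0.34 for SNORA70E, -0.30 for SNORA35 and -0.29 for SNORA80B, and none of these passed the test.

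With untreated cells as the control, 5 members differed on 18 arrays and all of them rose (SNORA14A, SNORA14B, SNORA38B, SNORA46 and SNORA65), where 0.0543% of all genes differed either way. On 16 arrays 18 members rose, where 0.233% of all genes differed. The comparisons with beads and with untreated cells share the JinB8 MHC1+ arrays. SNORA14B rose by 2.55 ± 0.38 over untreated cells (limma adjusted p = 0.0247) and SNORA14A by 1.86 ± 0.30 (adjusted p = 0.0433). Both are guides for small-subunit ribosomal RNA. SNORA14B was not past the test against beads, at 2.05 ± 0.38 (adjusted p = 0.118).

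The comparison of the donor lines within MHC1+ capture asks whether EVs of the CD47-deficient line differ from those of its parent line. On 18 arrays 2 members rose with JinB8 MHC1+ EVs and none fell, where 0.0326% of all genes rose. SNORA38B rose by 2.10 ± 0.20 (limma adjusted p = 0.000813, 3 arrays against 3) and SNORA65 by 2.21 ± 0.35 (adjusted p = 0.0491), the second only just past the threshold. On 16 arrays the same differences were measured against a smaller spread, and 31 members rose, where 0.38% of all genes rose, and none fell. On 15 arrays 25 rose, where 0.315% of all genes rose. Leaving out 1 of the 16 arrays gave 11 to 14 without a JinB8 MHC1+ array and 48 without Jurkat MHC1+ replicate 3. How many of all genes rose in these fits is not given, so such counts cannot be read as particular to the members. The median difference of the 77 members was 0.94 with Jurkat MHC1+ replicate 1 and 0.83 without it, and that of all genes -0.06 and -0.02.

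SNORA50A had the largest difference between the lines on 18 and 16 arrays (on 15 arrays SNORA38B did, at 2.18), with 8.78, 8.88 and 8.64 for JinB8 MHC1+ EVs and 6.06, 6.98 and 6.57 for Jurkat MHC1+ EVs. The lowest Jurkat value is replicate 1. SNORA50A rose by 2.23 ± 0.24 on 16 arrays (limma adjusted p = 0.000691) and by 1.99 ± 0.23 on 15 (adjusted p = 0.000801), while on 18 arrays the same difference of 2.23 had an SE of 0.63 (adjusted p = 0.927). SNORA37 rose by 1.64 ± 0.16 (adjusted p = 0.000186 on 16 arrays). SNORA23, from an intron of the nuclear import gene IPO7, had 11.62, 11.69 and 11.61 for JinB8 MHC1+ EVs and 9.66, 10.57 and 9.60 for Jurkat MHC1+ EVs, and rose by 1.70 ± 0.23 (adjusted p = 0.00341). Of the remaining members that rose on 16 arrays, SNORA14B rose by 1.99, SNORA33 and SNORA20 by 1.71 each, SNORA22 by 1.64 and SNORA24 by 1.50. On 15 arrays SNORA14B and SNORA33 no longer passed, with adjusted p = 0.0719 and 0.0711 (limma). At the other end SNORA80B differed by -0.60, SNORA70E by -0.55 and SNORA35 by -0.49, none of them past the test. Without Jurkat MHC1+ replicate 1 these differences were -0.27, -0.37 and -0.29. SNORA35 lies in HTR2C, a serotonin receptor gene known from brain, and had values of 3.56 to 5.26 over all arrays.

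**Figure D2:**
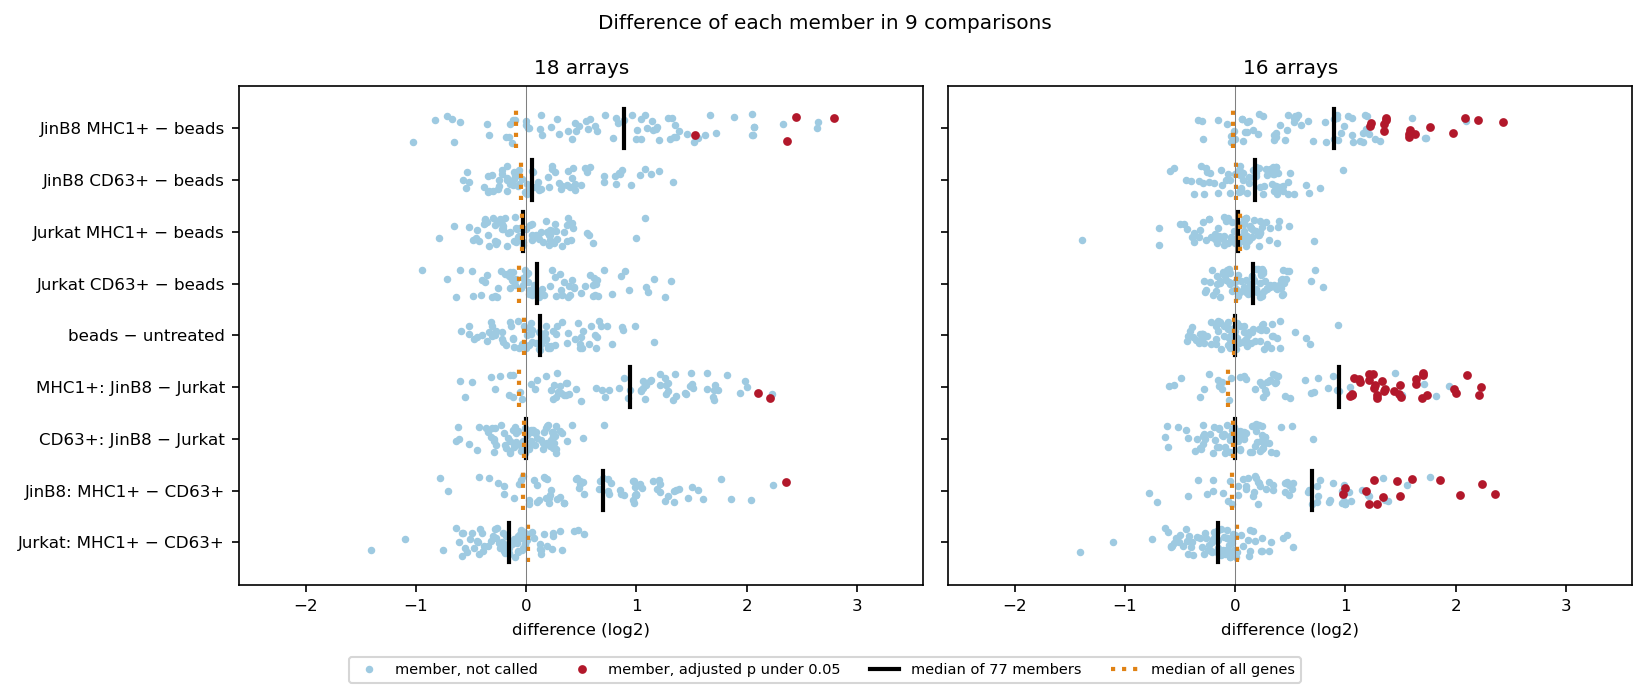
Difference of each of the 77 members (points, log2, horizontal axis) in 9 comparisons (rows), on 18 arrays at left and 16 at right, with the medians of the members and of all genes as lines. Red points are past the threshold. They occur in the 3 rows that set JinB8 MHC1+ EVs against another group, where the members' medians are 0.70 to 0.94, while the other rows centre near 0.

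The comparison of the capture antibodies within JinB8 gave 1 member that rose with MHC1+ EVs on 18 arrays, SNORA38B at 2.35 ± 0.20 (limma adjusted p = 0.000182), where 0.00543% of all genes rose. On 16 arrays 14 members rose and none fell, where 0.174% of all genes rose. SNORA62 rose by 2.24 ± 0.36 (adjusted p = 0.0189), SNORA14B by 2.04 ± 0.37 (adjusted p = 0.0373), SNORA14A by 1.86 ± 0.22 (adjusted p = 0.00181) and SNORA38 by 1.35 ± 0.16 (adjusted p = 0.00203). The median over the members was 0.70, against -0.03 over all genes. The lowest value was -0.78 ± 0.24 for SNORA80B, not past the test (adjusted p = 0.22). On 15 arrays 35 members rose and SNORA80B fell, by 0.78 with an SE of 0.16 (adjusted p = 0.0288), where 1.54% of all genes rose and 0.386% fell. Leaving out 1 of the 16 arrays gave 4 to 7 calls without a JinB8 MHC1+ array, 4 without JinB8 CD63+ replicate 1, 7 without replicate 3 and 31 without replicate 2 of that group. The share of all genes called in these fits is not given.

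Whether the donor line mattered more under MHC1+ than under CD63+ capture was tested as the difference of the 2 line differences. No member passed on 18 arrays with limma, although 33 had an unadjusted p under 0.05, and 0% of all genes passed. The share of all genes at that unadjusted threshold is not given. SNORA38B came nearest, at 2.11 ± 0.29 (adjusted p = 0.0541). On 16 arrays 2 members passed, where 0.0163% of all genes did: SNORA38B at 2.11 ± 0.23 (adjusted p = 0.00255) and SNORA37 at 1.64 ± 0.22 (adjusted p = 0.0134). The median over the members was 0.94 and over all genes -0.06. Within CD63+ capture the lines differed by -0.01 in SNORA38B and by 0.00 in SNORA37. The count was 1 without JinB8 MHC1+ replicate 1 or 2 or JinB8 CD63+ replicate 1, 34 without JinB8 CD63+ replicate 2, 42 without Jurkat MHC1+ replicate 3, and 3 to 7 without a bead array, Jurkat MHC1+ replicate 1 or 2, or Jurkat CD63+ replicate 1. A test of any difference among the 6 groups passed in 1 member on 18 arrays, SNORA38B, where 0.0109% of all genes passed, and in 13 members on 16 arrays, where 0.233% did. Without a further JinB8 MHC1+ array 2 to 5 passed, and 32 did without Jurkat MHC1+ replicate 1. For both tests the share of all genes that passed on leaving out a further array is not given.

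The comparisons without JinB8 MHC1+ EVs gave no call. Against beads, JinB8 CD63+ EVs gave 0 members on 18 and 16 arrays by limma, with 8 and 10 at an unadjusted p under 0.05, and 0.00543% and 0.0923% of all genes passed. Jurkat MHC1+ EVs gave 0 members, with 2 and 0 at an unadjusted p under 0.05, and 0% of all genes. Jurkat CD63+ EVs gave 0 members, with 4 and 3 unadjusted, and 0.00543% of all genes in both. Beads against untreated cells gave 0 members, with 6 and 2 unadjusted, and 0% of all genes. JinB8 CD63+ against Jurkat CD63+ EVs gave 0 members, with 0 and 3 unadjusted, and 0% of all genes. Jurkat MHC1+ against Jurkat CD63+ EVs gave 0 members, with 1 and 10 unadjusted, where 0% and 0.00543% of all genes passed. In the order given, without the last comparison, 1234, 1718, 286, 188 and 740 of all 18417 genes had an unadjusted p under 0.05 on 16 arrays. For the last comparison and for 18 arrays that count is not given, so those unadjusted counts cannot be read as particular to the members. The members' medians in these 6 comparisons lay between -0.15 and 0.18. The lowest single difference, -1.41 for SCARNA9 between Jurkat MHC1+ and Jurkat CD63+ EVs, rests on Jurkat MHC1+ replicate 1, where SCARNA9 read 3.72 against 6.47 and 7.40 in the other Jurkat MHC1+ arrays. Without that array no member differed by more than 0.67 in that comparison.

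Across all 6 groups, JinB8 MHC1+ EVs had the highest group mean in 54 of 77 members (70.1%) on 18 arrays, and in 26.7% of all genes. On 16 arrays it was 61 of 77 (79.2%) and 23.5%. In 39 members (50.6%) each of the 3 JinB8 MHC1+ arrays lay above all 15 other arrays, as in 2.57% of all genes, and in no member did all 3 lie below them. Against the 13 other concordant arrays it was 44 members (57.1%) and 2.78% of all genes. Of the members with another group on top, the beads had the highest mean in 11 and untreated cells in 8 on 18 arrays, but in only 1 and 2 on 16.

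Among the 16 Cajal body RNAs, SCARNA4, an H/ACA RNA that guides a spliceosomal RNA, rose in 3 comparisons. It had 5.70, 6.06 and 6.41 with JinB8 MHC1+ EVs, against 4.50, 4.96 and 4.29 with JinB8 CD63+ EVs, 4.26, 4.46 and 4.24 with Jurkat MHC1+ EVs and 4.79, 4.05 and 4.75 with beads. No other array exceeded 5.37. SCARNA4 rose on 16 arrays by 1.64 ± 0.29 over beads (limma adjusted p = 0.0262), by 1.74 ± 0.26 over Jurkat MHC1+ EVs (adjusted p = 0.00653) and by 1.47 ± 0.26 over JinB8 CD63+ EVs (adjusted p = 0.0334). On 18 arrays none of the 3 passed. Against Jurkat MHC1+ EVs 4 more rose on 16 arrays: SCARNA9L by 1.35 ± 0.24 (adjusted p = 0.0225), SCARNA8 by 1.27 ± 0.22 (adjusted p = 0.0161), SCARNA6 by 1.26 ± 0.24 (adjusted p = 0.0296) and SCARNA10 by 1.05 ± 0.20 (adjusted p = 0.0296). SCARNA8 is an H/ACA RNA, and SCARNA6 and SCARNA10 carry both domain types. On 15 arrays SCARNA10 no longer passed, at 0.83 ± 0.18 (adjusted p = 0.0719). All 16 SCARNA members had a positive difference from Jurkat MHC1+ EVs on 16 arrays, with a median of 0.80 (0.73 on 15 arrays). Of the 61 SNORA members 49 did on 16 arrays, with a median of 1.05 (0.97 on 15 arrays). SCARNA7, a box C/D RNA, differed by 1.51 ± 0.35 (adjusted p = 0.0701; 0.95 ± 0.20 without Jurkat MHC1+ replicate 1) and SCARNA12 by 0.39 ± 0.25 (adjusted p = 0.274), with neither past the test. SCARNA9 had the widest difference of the class, 1.94 ± 0.64 (adjusted p = 0.103), and 0.87 ± 0.35 without Jurkat MHC1+ replicate 1. A difference between the SNORA and SCARNA classes was not tested.

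The members were split by mean signal at the quartiles of all genes, 4.17, 5.63 and 7.08 on the log2 scale, which gave 19, 20, 21 and 17 members from the lowest stratum up. On 16 arrays the median difference between JinB8 MHC1+ and Jurkat MHC1+ EVs was 0.25, 1.15, 0.94 and 1.13 in these strata, and that of all genes -0.15, -0.21, 0.08 and 0.23. Of the members, 3, 11, 7 and 10 rose, and of all genes in these strata, the members included, 8, 22, 16 and 24. On 15 arrays 1, 7, 7 and 10 members rose. The lowest stratum, where signals lie near the bottom of the scale, held the fewest, and the medians of the other 3 lay between 0.94 and 1.15. Against beads on 16 arrays the medians were 0.13, 1.01, 0.93 and 1.20, with those of all genes between -0.05 and 0.02. On 18 arrays the members' medians against beads were 0.03, 1.14, 0.89 and 1.18, while all genes had -0.33, -0.38, 0.16 and 0.85. In the top stratum of the fit on 18 arrays, all genes were thus higher by nearly as much as the members, and on 16 arrays they were not.

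**Figure D3:**
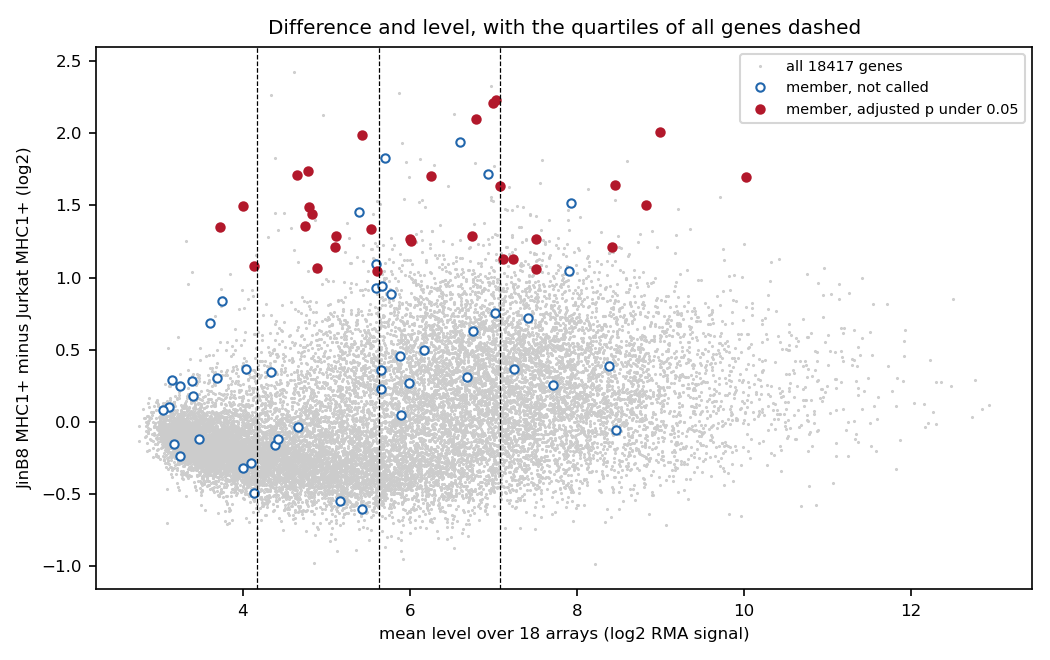
Mean log2 level over 18 arrays (horizontal axis) and difference between JinB8 MHC1+ and Jurkat MHC1+ EVs on 16 arrays (vertical axis, log2) for all 18417 genes in grey and the 77 members, filled where past the threshold. Dashed lines mark the quartiles 4.17, 5.63 and 7.08. Filled points number 3, 11, 7 and 10 from the lowest stratum up.

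Members with near-identical copies did not all behave alike, and for these the probes may not separate the copies. In the SNORA71 group, SNORA71A read 8.22, 8.20 and 7.97 with JinB8 MHC1+ EVs and 6.88, 7.14 and 6.97 with Jurkat MHC1+ EVs, and rose by 1.13 ± 0.16 on 16 arrays (limma adjusted p = 0.00439). SNORA71C read 8.50, 8.54 and 8.26 with JinB8 MHC1+ EVs and 9.01, 8.43 and 8.04 with Jurkat MHC1+ EVs, a difference of -0.06 ± 0.22 on 16 arrays and of 0.20 ± 0.19 without Jurkat MHC1+ replicate 1. SNORA71D differed by 1.05 ± 0.22 (adjusted p = 0.0599). In the SNORA5 group, SNORA5A rose by 1.36 ± 0.23 (adjusted p = 0.0176), while SNORA5B differed by -0.04 (0.18 without Jurkat MHC1+ replicate 1) and SNORA5C by 0.23. The 6 SNORA70 copies had a median of -0.15 on 16 arrays, a highest value of -0.12 and no call. SNORA38, a relative of SNORA38B in the gene PRRC2A, rose by 1.06 ± 0.16 (adjusted p = 0.00772). Of the 5 members with more than 1 probe set, none had probe sets that differed in sign against beads on 16 arrays or against Jurkat MHC1+ EVs. The 2 probe sets of SNORA10 carry identical values, as do 2 of the 3 of SNORA15.

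In the RefSeq gene table most members lie inside another gene. A single gene spans 66 members, several span 10, and SNORA7B has none. The table holds no strand, so orientation was not matched. For 55 members the 1 spanning gene was itself tested, which gave 46 different genes. On 16 arrays 23 of these 55 members rose against Jurkat MHC1+ EVs. Over all 55, the member's difference exceeded that of its spanning gene in 37. All 23 are among these 37, which is likely from their choice as members that rose. None of the 46 genes passed the test in either direction. Of all 18417 genes 0.38% rose and 1 fell, so that no call among 46 is near that share. The median was 0.94 for the members and 0.28 for the genes, and for the genes around members that rose the range was -0.47 to 1.02. The difference between member and gene was not itself tested.

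CNOT1, the scaffold of the main deadenylase complex, differed by 0.13 ± 0.19 between JinB8 MHC1+ and Jurkat MHC1+ EVs, beside 2.23 for SNORA50A and 1.49 for SNORA46 inside it. RPL12 differed by 0.43 ± 0.11 beside 2.21 for SNORA65, and NOL11 by 0.60 ± 0.20 beside 2.10 for SNORA38B. MBD2 differed by 0.10 ± 0.17 beside 1.64 for SNORA37. The widest shift of a gene around a member that rose was in RPL27A, at 1.02 ± 0.24 (limma adjusted p = 0.0701), beside 2.01 for SNORA3A and 1.45 for SNORA3B. Members of 1 spanning gene could differ from each other. In TCP1, a chaperonin gene, SNORA20 rose by 1.71 and SNORA29 differed by 0.36. In KANSL2 SNORA2A rose by 1.50 and SNORA2B differed by 0.10. In ATG16L1, an autophagy gene, SCARNA6 rose by 1.26 and SCARNA5 differed by 0.31. In SNHG17, a non-coding host gene, SNORA71A and SNORA71C differed as given above, and SNHG17 itself by 0.20 ± 0.13. SNORA29, SNORA2A and SNORA2B belong to the lowest stratum by signal, and SNORA2A no longer passed on 15 arrays (limma adjusted p = 0.0927). The 12 members in a ribosomal protein gene had a median of 1.31 with 8 that rose, and the 54 in another single gene had a median of 0.74 with 19 that rose. A difference between these 2 sets was not tested.

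**Figure D4:**
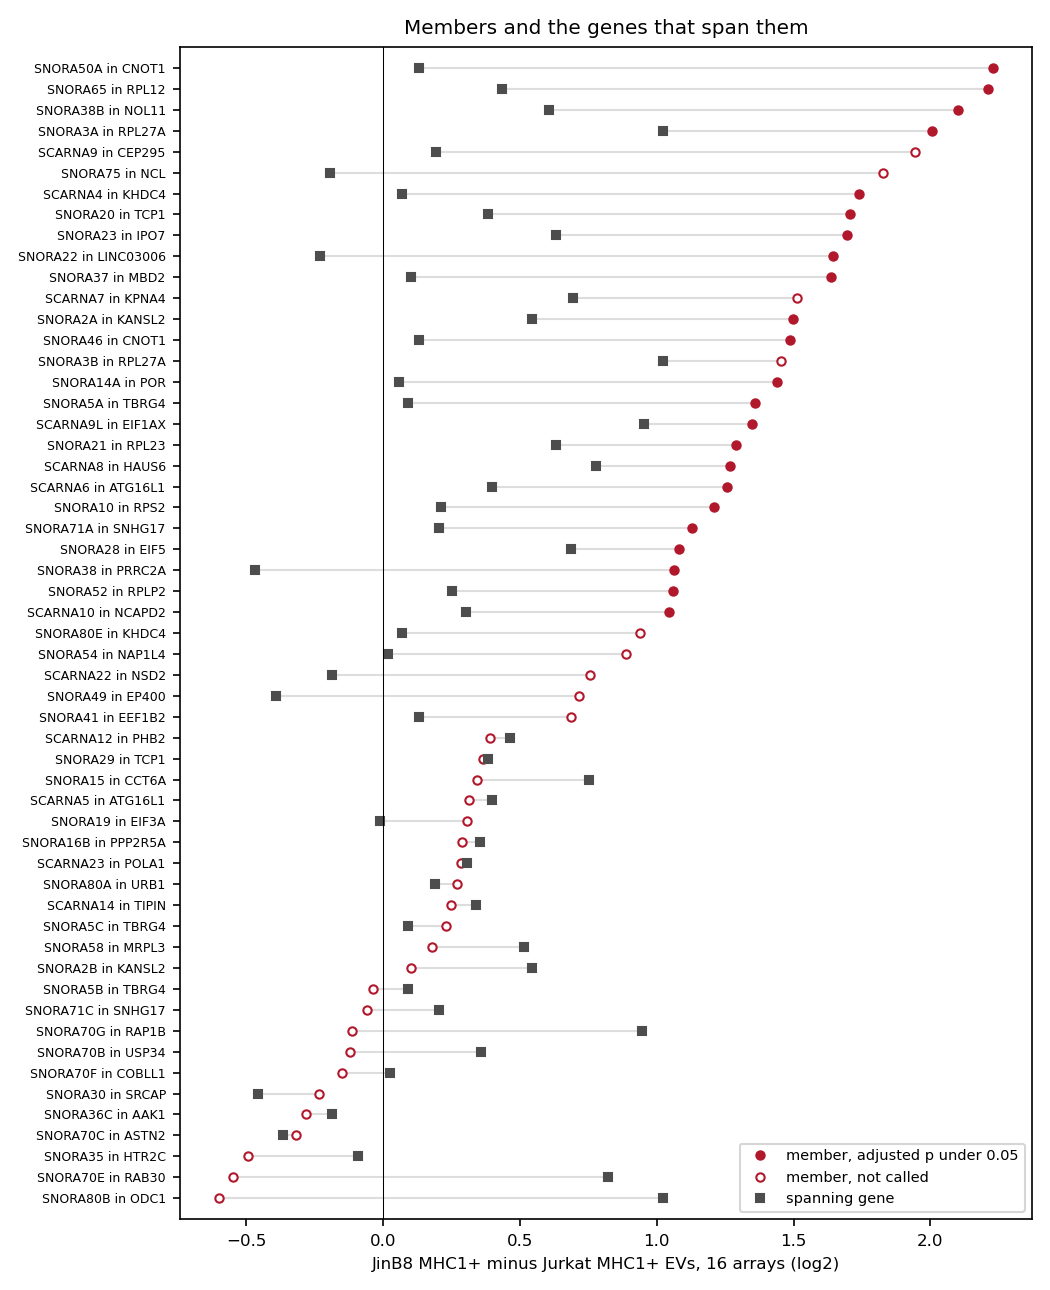
Difference between JinB8 MHC1+ and Jurkat MHC1+ EVs on 16 arrays (horizontal axis, log2) for the 55 members with 1 tested spanning gene (circles, filled where past the threshold) and for that gene (squares), ordered by the member's difference. Of the 55 circles 37 lie to the right of their squares, among them the 23 filled ones, which were picked as members that rose. The squares beside filled circles run from -0.47 to 1.02.

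None of 14 genes for proteins of the H/ACA machinery passed the test between JinB8 MHC1+ EVs and beads, Jurkat MHC1+ or JinB8 CD63+ EVs on 18 or 16 arrays. Of all genes 0.195%, 0.38% and 0.174% rose in these comparisons on 16 arrays, so that no call among 14 is near that share. Of the 14, on 16 arrays, 2, 3 and 3 had an unadjusted p under 0.05 by limma. Of all 18417 genes 954, 5443 and 3051 did. Against Jurkat MHC1+ EVs 11 of the 14 had a positive difference on 16 arrays, with a median of 0.28 against -0.06 over all genes. Most of the 14 lie in the upper strata 3 and 4 by signal, where all genes had medians of 0.08 and 0.23. On 15 arrays 10 of the 14 were positive, with a median of 0.16. The median on 16 arrays was 0.02 against beads and 0.29 against JinB8 CD63+ EVs. The single values that follow are against Jurkat MHC1+ EVs on 16 arrays. Among the core proteins DKC1 differed by 0.37 ± 0.19, NHP2 by 0.35 ± 0.23, NOP10 by 0.68 ± 0.23 (limma adjusted p = 0.105) and GAR1 by -0.10 ± 0.16. Of the assembly factors, SHQ1 differed by 0.89 ± 0.32 (adjusted p = 0.115), NAF1 by 0.27 ± 0.16, RUVBL1 by 0.50 ± 0.25 and RUVBL2 by 0.07 ± 0.16. The Cajal body and nucleolar proteins WRAP53, COIL and NOLC1 differed by -0.18, 0.13 and 0.13, and the 3′ end processing enzymes PARN, TENT4B and TOE1 by 0.60, -0.01 and 0.29. TERC, the telomerase RNA, which ends in an H/ACA domain, differed by -0.36 ± 0.19. NOP10 was the 1 protein gene whose JinB8 MHC1+ arrays (10.05, 10.02 and 10.03) lay above all other arrays.

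Some other short RNAs moved with the members, and their part in the result was not tested. Of these, VTRNA1-1 and RMRP were picked by hand outside the lists, and other RNAs of their kinds are not given. TERC, named above, was lower than with Jurkat MHC1+ EVs. Of 69 box C/D RNAs (SNORD symbols outside 4 clustered repeat families), 22 rose against Jurkat MHC1+ EVs on 16 arrays, where 0.38% of all genes rose. The median was 0.90 over these 69 and -0.06 over all genes. All 3 JinB8 MHC1+ arrays lay above the 15 others in 36 of these 69 (52.2%), as in 2.57% of all genes. The vault RNA VTRNA1-1, transcribed by RNA polymerase III, had 6.04, 6.06 and 6.11 with JinB8 MHC1+ EVs and 3.72, 3.52 and 4.18 with beads, and rose by 2.26 ± 0.33 (limma adjusted p = 0.0169 on 18 arrays). RMRP, the RNA of a ribosomal RNA processing enzyme, had 12.50, 12.54 and 12.44 with JinB8 MHC1+ EVs and 11.63, 11.64 and 10.12 with beads, the last being the discordant array, and rose by 0.86 ± 0.15 on 16 arrays (adjusted p = 0.0199). Of 179 microRNA precursors none rose in these comparisons and none had the JinB8 MHC1+ arrays above all others. The kit for RNA extraction differs between the sample labels (Trizol and RNeasy) and the series design (a miRNA kit). How well short RNAs were retained in each sample, and whether both kits were used, is not given in the sources used here.

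Averaged over members, the SNORA class stood at 6.37, 6.34 and 6.27 in the JinB8 MHC1+ arrays and between 5.05 and 5.72 in the other 15. The SCARNA class stood at 6.47, 6.51 and 6.40 in the JinB8 MHC1+ arrays and between 5.09 and 5.998 elsewhere. The box C/D RNAs averaged 6.90, 6.94 and 6.83 in the JinB8 MHC1+ arrays and 4.88 to 6.27 elsewhere. The microRNA precursors had 3.999, 3.997 and 4.01 in the JinB8 MHC1+ arrays, against 4.02 to 4.94 in the other arrays, so that the order was the opposite there. Their averages in the JinB8 MHC1+ arrays lay below 4.17, the lowest quartile bound of all genes. Against Jurkat MHC1+ EVs on 16 arrays the precursors' median was -0.18, and that of all genes in the lowest stratum -0.15. A median this low was thus not particular to the precursors. The 1 gene of all 18417 that fell in this comparison was a precursor. All 3 JinB8 MHC1+ arrays lay below all 15 others in 7 of the 179 precursors and in 80 of the 4604 genes of the lowest stratum. In the first 3 lists the 3 JinB8 MHC1+ arrays lay close together and above every other array.

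**Figure D5:**
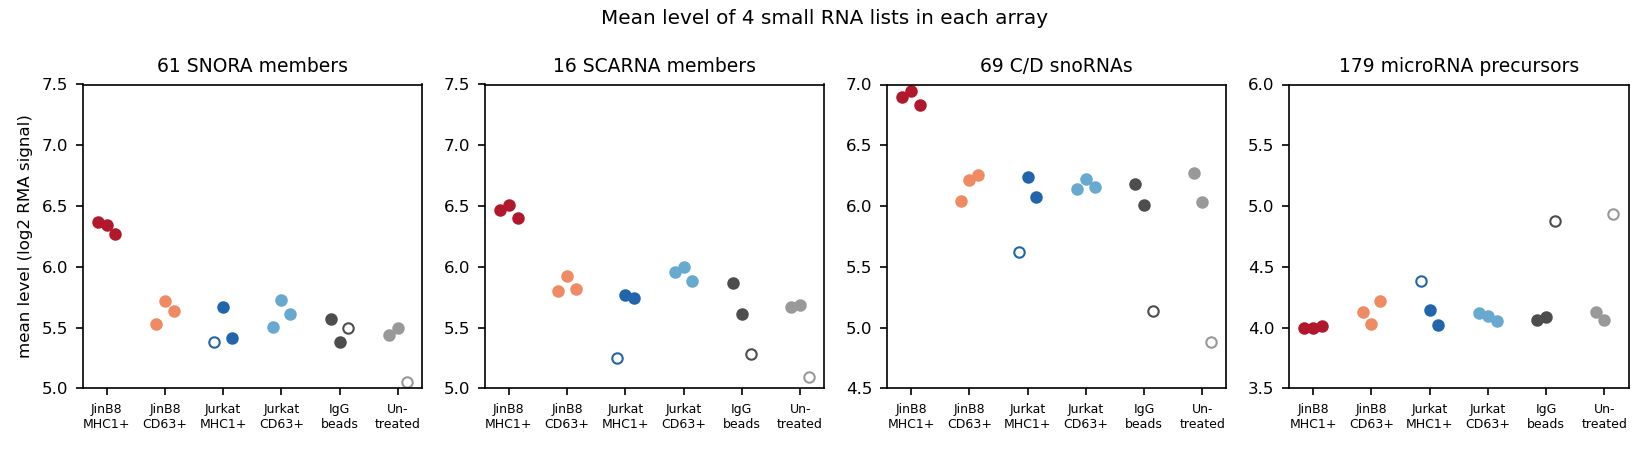
Mean log2 RMA level (vertical axes, each spanning 2.5 log2 units from a different base) of 61 SNORA members, 16 SCARNA members, 69 box C/D RNAs and 179 microRNA precursors in each array, by group (horizontal axis). Open points are the same 3 arrays as in the plot of single members. The JinB8 MHC1+ arrays are highest in the first 3 panels (6.27 to 6.37, 6.40 to 6.51 and 6.83 to 6.94) and lowest in the last.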

How the data were processed

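RNA of 18 HUVEC samples (300 ng labelled per sample, per the labels) was hybridised to Affymetrix whole-transcript arrays. RMA values were made by the authors in Affymetrix Expression Console, per the submitters' processing notes. Software versions: not given in the sources used here. From their range, the deposited values were read as log2. Groups come from the bracketed sample names.

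Of 33297 probe sets, 12083 had no gene and 1754 several symbols in the platform annotation. The 19460 with 1 symbol gave 18417 genes, keeping for each the probe set with the highest mean. Of these probe sets 83 belonged to the 77 members. Another 28 probe sets with an H/ACA symbol beside others were left out. No detection filter was used.

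One mean per group was fitted with limma 3.58.1 (R 4.3.3, lmFit and eBayes) on all 18 arrays. Tests are two-sided, with Benjamini-Hochberg adjustment across the 18417 genes and calls at 0.05. Fits on 16 and 15 arrays and other settings were run beside it, and the code was tested on simulated data. Differences carry the model's SE. Spanning genes come from the RefSeq table of GRCh38.p14 by position, where the planned match of strand could not be made. Members named were taken from those with up to 12 smallest adjusted p among calls on 18 or 16 arrays, the 5 largest and 3 smallest differences, the highest and lowest signals, their spanning genes and the H/ACA proteins. SNORA71D, SNORA5C, SNORA2B, SNORA29 and SCARNA5, relatives or neighbours of these, were added after their values were seen. Members, lists and alternatives were chosen with earlier results of these data known. Tables were made with pandas 2.3.3 in Python 3.11.15 and plots with matplotlib 3.10.9.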

Additional observations from a re-analysis of the deposited data

Results flagged for a closer look

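SNORA38B and SNORA37 differed more between the donor lines under MHC1+ than under CD63+ capture. On 16 arrays this difference of differences was 2.11 for SNORA38B and 1.64 for SNORA37 (limma adjusted p = 0.00255 and 0.0134). On 18 arrays neither passed, with adjusted p = 0.0541 and 0.923.

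Outside the members, 28 probe sets carry an H/ACA symbol together with other symbols and entered no comparison above. In 19 of them all 3 JinB8 MHC1+ arrays lay above the 4 concordant control arrays, as in 7.21% of all probe sets. In 17 they lay above all 13 other concordant arrays, as in 2.57% of all probe sets. Their median difference from Jurkat MHC1+ EVs was 0.90 on the log2 scale, within -0.26 to 1.90.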

How the results depend on the processing

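The counts of members that passed depended on which arrays were used. For JinB8 MHC1+ EVs against beads, Jurkat MHC1+ EVs and JinB8 CD63+ EVs, the counts on 18 arrays were 4, 2 and 1. They became 15, 31 and 14 on 16 arrays, 33, 25 and 36 on 15 arrays, and 51, 56 and 48 with array weights. Of the 36, 35 rose and SNORA80B fell. Of all genes 0.0434%, 0.0326% and 0.00543% rose on 18 arrays, and 0.195%, 0.38% and 0.174% on 16. On 15 arrays 0.505%, 0.315% and 1.54% rose, and 0.386% fell against JinB8 CD63+ EVs. For array weights and the other settings of this section that share is not given, so their counts cannot be read as particular to the members. Fitting only the groups compared gave 0, 9 and 19, and quantile normalization again gave 2, 1 and 2. Centring on array medians gave 1 for the second and 2 for the third, while all probe sets, or limma with trend and robust options, gave 1 for the second. The difference of line differences gave 0 on 18 arrays, 2 on 16, 6 on 15, 44 with array weights and 3 with only the groups compared. The test over 6 groups gave 1, 13, 32 and 59 on 18, 16 and 15 arrays and with weights, and 0 after quantile normalization again. Jurkat MHC1+ against Jurkat CD63+ EVs gave 1 member with array weights.

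Leaving out each of the 18 arrays in turn gave 1 to 9 members against beads, 1 to 4 against Jurkat MHC1+ EVs, 1 to 3 against JinB8 CD63+ EVs, 0 to 1 for the difference of line differences and 1 to 3 over 6 groups. The 9 came without untreated replicate 3. Leaving out each of the 16 arrays in turn, an alternative chosen after seeing the data, gave 1 to 33, 11 to 48, 4 to 36, 1 to 42 and 2 to 32. The count of 1 against beads came without bead replicate 2 and that of 33 without Jurkat MHC1+ replicate 1. The 48 and 42 came without Jurkat MHC1+ replicate 3. For 62 results of single members, 1608 alternative values were computed, of which 1365 kept direction and side of the threshold, 199 passed it newly, 44 no longer passed and 0 turned. Some other members did turn in sign between settings: against beads SNORA5C stood at -0.15 on 18 arrays and 0.37 on 16, and SNORA5B at -0.83 and 0.06. Bead replicate 3, absent from the 16, read 6.98 for SNORA5C, against 5.34 and 5.48 in the other bead arrays. For SNORA5B it read 6.92, against 4.29 and 4.20. Why that array stood apart, and what moved the counts above, was not tested. No paired analysis was possible because the labels give the arrays of different groups no shared replicate numbers. With 3 arrays per group, probe sets of low signal limit what can be seen in the lowest stratum of members.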
